A study of Drosophila melanogaster with 24 samples.

Results

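The cytoplasmic ribosomal protein genes encode the proteins of the large subunit (*RpL* genes), the small subunit (*RpS* genes) and the acidic stalk (*RpLP* genes) of the ribosome outside the mitochondria. They were chosen by symbol, as the genes that begin with RpL or RpS followed by a digit or P, among probe sets of the Affymetrix Drosophila Genome 2.0 array paired with exactly 1 gene symbol. The probe set with the highest mean log2 Signal stood for each gene. This gave 41 of the 11982 genes that are paired alone with a probe set, whereas 93 genes of RefSeq have a symbol that meets the rule. The remaining genes, among them *RpS5a*, *RpS10b*, *RpS19a* and *RpL22*, were not analysed here.

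RNA came from whole bodies of *Drosophila melanogaster* lines selected for resistance to alcohol (R1 and R2), lines selected for sensitivity to it (S1 and S2) and control lines bred without selection (C1 and C2), all of the same natural base population and sampled at generation 25. Each of the 6 lines gave 2 pools of males and 2 pools of females, each pool of 15 virgin flies between 3 and 5 days old and each on an array of its own, 24 arrays in all. The labels state for every array that the flies met ethanol vapor before RNA was extracted, so no group without it was measured. Only 2 lines stand behind each selection group, and p-values of contrasts between lines measure the spread between RNA pools and not between lines.

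Ribosomal proteins are needed in near equal numbers in every cell, and their transcripts are among the most abundant of a fly. Loss of a single copy of many of these genes gives the Minute phenotype of slow development and thin bristles. Several proteins have a paralogue from a second gene, and in flies a number of these paralogues are known to be expressed mainly in the testis or the ovary. Genes called "like" can encode relatives of ribosomal proteins that act in the assembly of subunits in the nucleolus. In yeast the relatives of RpL7, RpL24 and RpLP0 are assembly factors of the large subunit.

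The arrays gave Signal, the linear intensity of MAS5, whose trimmed mean was 500.01 to 500.02 throughout. The median of probe sets other than controls lay between 130.9 and 149.8 on male arrays and between 55.74 and 81 on female arrays. Correlations between the 2 pools of a line and sex were 0.958 to 0.986 over the 11857 tested probe sets. Markers of the sexes separated the arrays by their labels. Summed Signal of 8 accessory gland genes lay between 58390 and 95150 on male arrays and between 58.53 and 166.9 on female arrays, that of 11 testis genes 39920 to 54990 in males and 623.9 to 1116 in females, *twe* alone in that list being higher in females, and that of 10 ovary genes 435.1 to 625 in males and 25780 to 59060 in females. Summed Signal of 5 flight muscle genes varied within both sexes, from 16080 to 70080 in males and from 8980 to 72770 in females. All 41 genes passed the filter on low values, a Signal of at least 50 on at least 12 arrays.

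By mean level, the genes fell into 2 ranges. Mean log2 Signal was 13.76 or more for 29 of them, here called the bright genes, and 12.22 or less for the other 12, a division made after the values were seen. Of the 250 tested probe sets with a mean log2 Signal of at least 13, 30 belonged to these genes, and 24 bright genes were among the 100 brightest probe sets of the array. The bright genes include 15 of the large subunit, 11 of the small subunit and the 3 stalk genes *RpLP0*, *RpLP1* and *RpLP2*. The dimmer range holds the 5 genes named "like", among them *RpL7-like*, together with *RpL10Aa*, *RpL34a*, *RpL37-2*, *RpS5b*, *RpS10a*, *RpS19b* and *RpS28a*. Of the 41 probe sets, 14 carry the suffix of sets whose probes match several transcripts, 3 that of sets for several transcripts of a gene, and 24 neither.

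**Figure D1:**
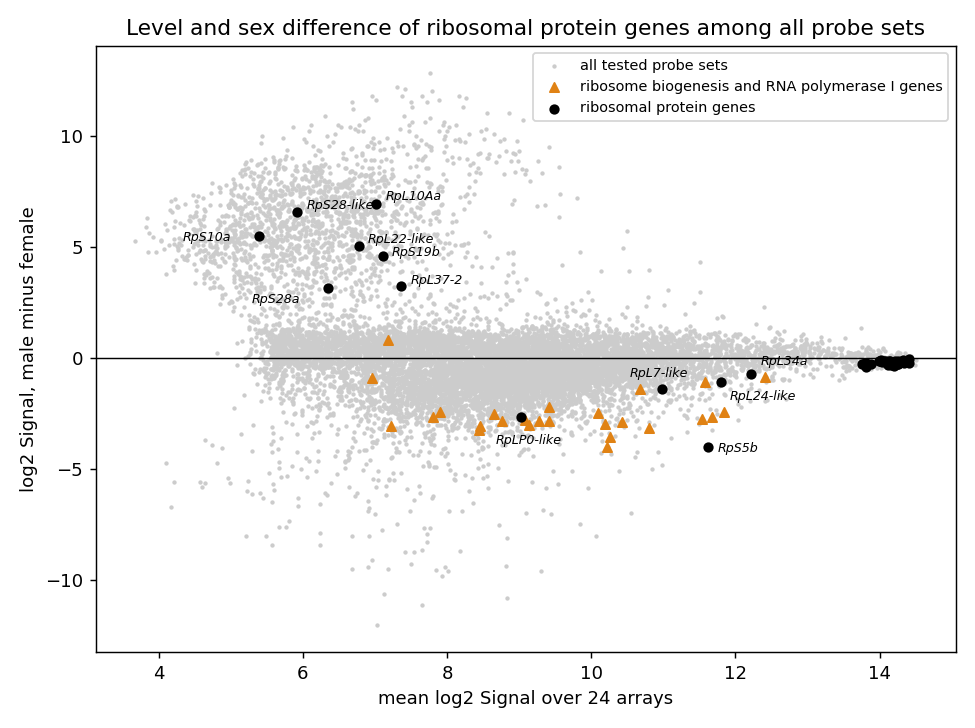
Each point is a probe set, with its mean log2 Signal over 24 arrays on the horizontal axis. The vertical axis gives its log2 difference, male minus female, averaged over 6 lines. Ribosomal protein genes (black) lie in a dense group of 29 near 0, all slightly negative in this scaling though not after centring, at the bright end, with 7 dimmer genes higher in males and 5 higher in females, and the genes of ribosome biogenesis and RNA polymerase I (orange triangles) have a median difference of -2.77.

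Males and females were compared over all 6 lines at an adjusted p under 0.001 from limma. Of the 41 ribosomal protein genes, 7 were higher in males, where 36% of all tested probe sets were, and 13 were higher in females, where 42.3% were. In all 20 of 41 differed between the sexes, against 78.3% of probe sets. For 12 of 41, the arrays of the sexes did not overlap, against 52.6% of probe sets. The median difference, male minus female, was -0.18 on the log2 scale for the 41 genes and -0.04 for all tested probe sets. In whole bodies, fewer cells of a type and less RNA per cell cannot be told apart. The summed ovary, testis and accessory gland markers moved with every difference between the sexes given here, and their part was not tested.

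The 7 genes higher in males were all dimmer paralogues, and all 12 male arrays exceeded all 12 female arrays for each, which held for 21.1% of tested probe sets. *RpL10Aa*, a paralogue of the L1 stalk protein gene *RpL10Ab*, had a Signal of 1194 to 1559 in males (median 1445) and 5.12 to 36.1 in females (median 11.3), a difference of 6.92 ± 0.27 (standard error; adjusted p = 1.5e-13 from limma). *RpS28-like*, 1 of 2 relatives of the small subunit gene *RpS28b* on the array, had 385 to 787 in males (median 647) and 3.00 to 23.3 in females (median 5.89), a difference of 6.55 ± 0.29. Female values of both genes lay below the filter level on every array. A gene with no female value at that level was tested only if all 12 male arrays reached it. For such genes the filter fixed the separation of the sexes in advance, so that separation was not a free outcome.

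*RpS10a*, a paralogue of a protein of the small subunit, had a Signal of 225 to 336 in males (median 285) and 1.22 to 17.6 in females (median 6.89), and differed by 5.50 ± 0.31. *RpL22-like*, whose protein is known from the germline of fly testes, had 456 to 756 in males (median 648) and 4.67 to 42.8 in females (median 26.2), and differed by 5.03 ± 0.19. *RpS19b*, a paralogue of the small subunit gene *RpS19a*, had 558 to 805 in males (median 688) and 5.71 to 65.4 in females (median 33.2), and differed by 4.57 ± 0.26. As for *RpL10Aa*, the lowest male pool of each of these 3 genes lay well above the highest female pool. Female values of *RpS10a* and *RpL22-like* were below the filter level on every array too, so for them the filter fixed this order.

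The remaining 2 genes had smaller differences. *RpL37-2* had 355 to 694 in males (median 521) and 21.97 to 77.9 in females (median 59.0), a difference of 3.24 ± 0.14. *RpS28a* had 183 to 383 in males (median 242) and 9.20 to 73.0 in females (median 29.9), a difference of 3.13 ± 0.23. Adjusted p-values of the 7 genes lay between 7.42e-14 and 8.64e-10 from limma, and the difference was positive in 6 of 6 lines for each. For *RpL10Aa*, *RpS28-like*, *RpS10a* and *RpL22-like*, the filter had fixed this sign in every line. Whether the female Signals exceeded background was not tested, and the size of each difference depended on how low values were treated. On the scale of log2(Signal + 50), the 7 differences were 1.85 for *RpS28a*, 2.41 for *RpL37-2*, 2.53 for *RpS10a*, 3.15 for *RpS19b*, 3.22 for *RpL22-like*, 3.47 for *RpS28-like* and 4.54 for *RpL10Aa*, each still called.

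Among the 13 genes higher in females, 5 were dimmer genes whose sexes did not overlap, with all male arrays below all female arrays, which held for 31.5% of tested probe sets. *RpS5b*, a paralogue of a small subunit protein known for its part in oogenesis, had a Signal of 604 to 969 in males (median 807) and 10948 to 14365 in females (median 12496). Its difference of -3.99 ± 0.06 (adjusted p = 5.05e-19 from limma) corresponds to a 15.9-fold higher Signal in females, and by line it ran from -4.25 in S2 to -3.66 in R1.

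The 3 relatives named "like" other than *RpL22-like* and *RpS28-like* were higher in females. *RpLP0-like*, whose yeast counterpart acts in the assembly of the large subunit, had 137 to 291 in males (median 201) and 1143 to 1543 in females (median 1316), a difference of -2.66 ± 0.05 (adjusted p = 2.08e-17 from limma). *RpL7-like* had 1072 to 1706 in males (median 1218) and 2755 to 3848 in females (median 3322), a difference of -1.42 ± 0.04. *RpL24-like* had 2270 to 2797 in males (median 2424) and 4615 to 5691 in females (median 5164), a difference of -1.08 ± 0.04. In each of the 3, the lowest female pool lay above the highest male pool, and the difference was negative in 6 of 6 lines.

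*RpL34a*, the brightest of the dimmer genes, had 3258 to 4302 in males (median 3739) and 4709 to 7352 in females (median 6226), a difference of -0.72 ± 0.05 (adjusted p = 2.01e-10 from limma). *RpL29* was the bright gene with the largest difference. It had 10835 to 14528 in males (median 12428) and 14273 to 19934 in females (median 16257), which overlap in a narrow range, and differed by -0.41 ± 0.05 (adjusted p = 3.21e-07 from limma). The other bright genes called were *RpLP0*, *RpS7*, *RpL27*, *RpL17*, *RpS18*, *RpS20* and *RpS26*, with differences between -0.35 and -0.24.

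**Figure D2:**
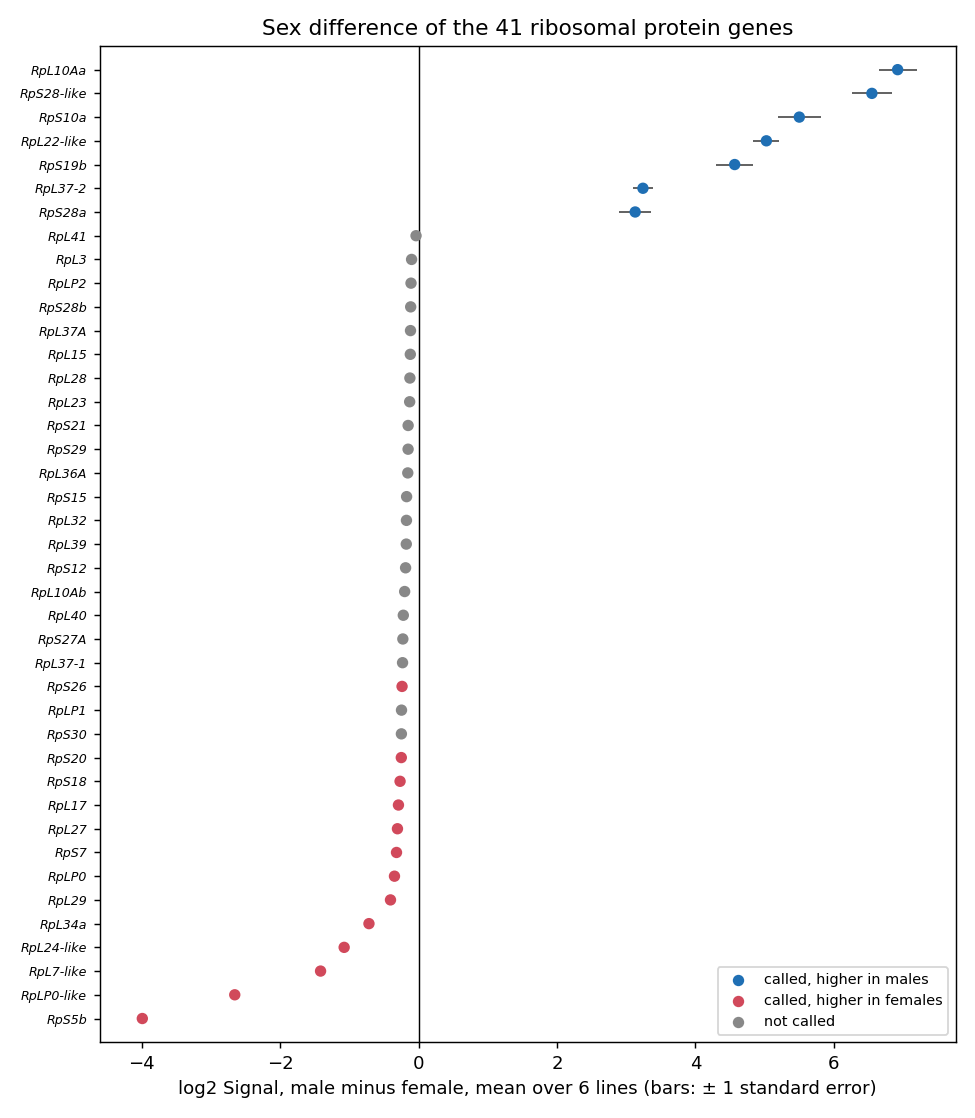
Log2 difference in Signal, male minus female, averaged over 6 lines, for each of the 41 ribosomal protein genes, with bars of 1 standard error. The 7 genes higher in males sit between 3.13 and 6.92, the bright genes between -0.41 and -0.04 in this scaling (centred on array medians, 14 of 29 are positive), and *RpS5b* at -3.99.

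Signal of the 29 bright genes differed little between the sexes. The highest Signal of any probe set was 18646 to 27050 on male arrays and 22229 to 30654 on female arrays. Whether differences keep their size so near that level was not tested. In the deposited scaling, every bright gene had a negative difference averaged over the 6 lines, from -0.41 for *RpL29* to -0.04 for *RpL41*. The latter encodes a very short protein of the large subunit. The median was -0.19, and 8 of 29 passed the test, where 78.3% of all probe sets did. All 29 overlapped between the sexes, whereas 52.6% of all probe sets did not. The negative sign was not shared by every line. By line, *RpL41* ran from -0.305 in C1 to 0.261 in R1 and was positive in 3 of 6 lines. *RpL29* ran from -0.611 in C1 to -0.178 in R1 and was negative in all 6. *RpL41* had a Signal of 17097 to 25321 in males (median 21931) and 18749 to 28038 in females (median 22188), with a difference of -0.04 ± 0.06 (adjusted p = 0.584 from limma). *RpL3*, whose protein lies near the peptidyl transferase center, differed by -0.10 (adjusted p = 0.129) and the stalk gene *RpLP2* by -0.11 (adjusted p = 0.103), the smallest differences after *RpL41*. After centring on array medians these 3 turned positive, at 0.15 for *RpL41*, 0.08 for *RpL3* and 0.07 for *RpLP2*, so they have no settled direction. Missing the threshold does not show that the sexes were equal for these genes.

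By role, the median difference was -0.18 for the 15 bright genes of the large subunit, -0.23 for the 11 of the small subunit and -0.25 for the 3 stalk genes. Within the stalk, *RpLP0*, the base on which the other proteins assemble, differed by -0.35 (14511 to 18212 in males and 17846 to 27156 in females), *RpLP1* by -0.25 and *RpLP2* by -0.11. *RpL32*, a common internal standard of fly expression studies, differed by -0.18 without passing the test (adjusted p = 0.00855). For comparison, the 220 other probe sets as bright had a median difference of 0.05, with 121 positive and 99 negative. Only probe sets of the 41 genes were taken out of them, so ribosomal protein genes outside the rule may be among the 220. The 69 genes of mitochondrial ribosomal proteins, which serve the separate ribosome of that organelle, had a median of -0.98 with all 69 negative.

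The direction of the small difference of the bright genes depended on the scaling. With each array centred on its median over tested probe sets, the median of all probe sets moved to 0.14 and that of the bright genes to -0.01, 14 of 29 bright genes had a positive difference and 0 were called in either direction. Quantile normalization over all arrays moved the median of all probe sets to -0.28 and that of the bright genes to -0.11. Relative to the median of all probe sets, the bright genes thus stood at -0.15 in the deposited scaling and after centring, and at 0.18 after quantile normalization. The 12 dimmer genes kept their sign and their calls under these scalings. Among the bright genes named, *RpL29* had -0.23 and *RpLP0* -0.17 after centring, and neither was called.

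Paralogues share much of their protein sequence, and the ratio of their probe sets within an array does not depend on the factor by which that array was scaled. The ratio shows unequal change between the sexes and no level of a gene against its paralogue. With both genes measured, 5 pairs could be followed, of which *RpS28a* and *RpS28-like* share the partner *RpS28b*. The ratio of *RpL10Aa* to *RpL10Ab* was higher in males by 7.12 ± 0.58 on the log2 scale (SD over 6 lines; 6.33 to 8.03). *RpL10Ab* itself overlapped between the sexes, with a Signal from 13228 up to 17844 in males and from 14939 up to 22165 in females. The ratio of *RpS28-like* to *RpS28b* was higher in males by 6.67 ± 0.26 and that of *RpL37-2* to *RpL37-1* by 3.47 ± 0.13 (SD, 6 lines each).

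The ratio of *RpS28a* to *RpS28b* was higher in males by 3.24 ± 0.91, and it varied most among lines, from 1.91 to 4.53. In the last pair the order was turned, and the ratio of *RpLP0-like* to *RpLP0* was lower in males, by -2.31 ± 0.37. Each of the 5 pairs moved the same way in 6 of 6 lines, and each had p = 0.03125 in the exact two-sided sign-flip permutation test, the smallest that 6 lines allow, and 0.03125 after adjustment over the 5 pairs. *RpS28b* (15225 to 20480 in males and 16322 to 25611 in females) and *RpL37-1* (10419 to 15482 in males and 13222 to 18430 in females) were not called for sex themselves. *RpL37-1* lay at the threshold, with a difference of -0.23 and a rounded adjusted p of 0.001 from limma. It was called in 9 of 35 alternatives. The sizes of the ratios rest on female Signals of the first 4 genes that were low, for *RpL10Aa* and *RpS28-like* below the filter level on every female array. For both of these the filter already required every male array to exceed every female array, so their own direction was not free to vary. On the scale of log2(Signal + 50), the ratio of *RpL10Aa* to *RpL10Ab* differed by 4.74 ± 0.17, that of *RpS28-like* to *RpS28b* by 3.59 ± 0.34, that of *RpL37-2* to *RpL37-1* by 2.64 ± 0.14 and that of *RpS28a* to *RpS28b* by 1.96 ± 0.46, each in the same direction in 6 of 6 lines, while *RpLP0-like* to *RpLP0* had -2.05 ± 0.31.

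**Figure D3:**
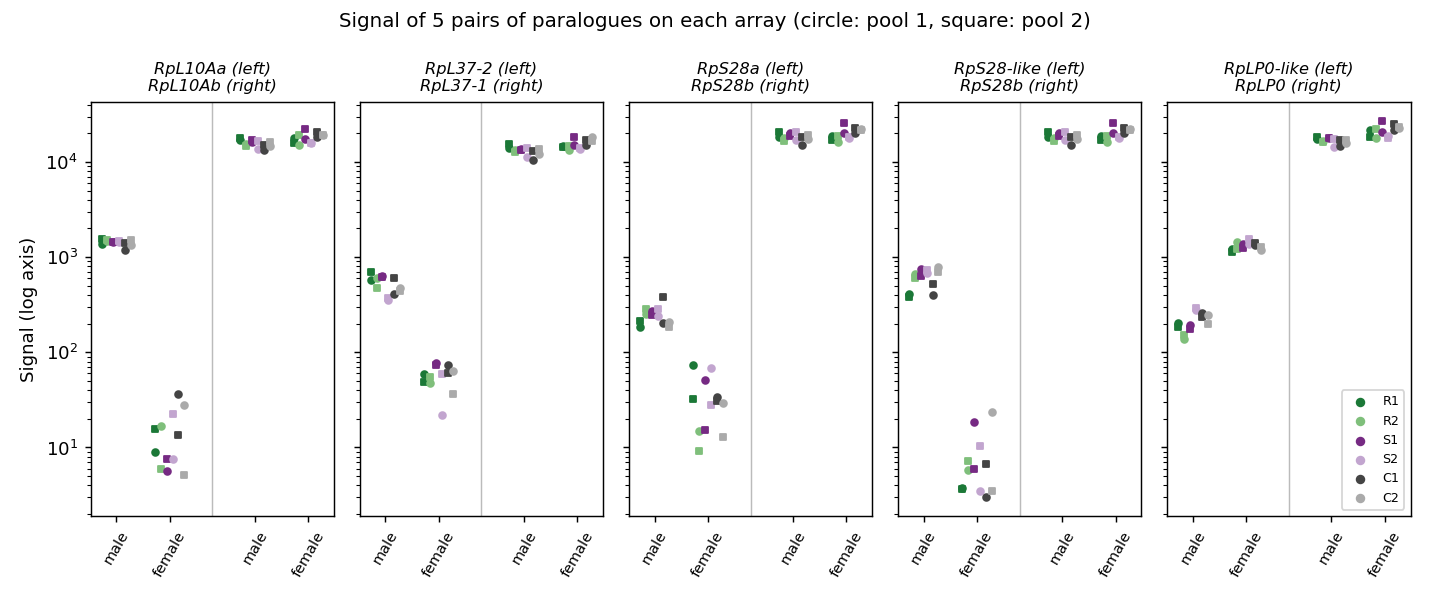
Signal (vertical log axis) on each of 24 arrays for the genes of 5 pairs, males left of females, with colors for fly lines, circles for pool 1 and squares for pool 2. In 4 pairs the left gene is separated between the sexes with males above and in *RpLP0-like* with females above, while the sexes overlap for every right gene. Levels of different probe sets cannot be set against each other.

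Other probe sets of these genes did not always follow the brightest. *RpL3* has 2 further sets, with mean Signals of 214 ± 39.9 in males and 703 ± 122 in females, and of 74.5 ± 11.9 in males and 126 ± 29.1 in females (SD, n = 12 arrays each). They differed by -1.72 and -0.73, both called, whereas the brightest set of *RpL3* differed by -0.10 and was not. *RpS29* has a second bright set, with a difference of -0.10 that was not called, and a dim one at 110 ± 23.4 in males and 14.7 ± 11.8 in females with a difference of 3.41, which was called. The dim set of *RpS30*, whose product is made as a fusion with a ubiquitin-like protein, differed by -1.38 (157 ± 22.6 in males and 409 ± 63.5 in females), while its bright set, at -0.25, was not called. Which transcripts the dim sets measure was not tested.

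Lines were compared next, to ask whether selection for alcohol resistance or sensitivity came with different levels of these transcripts. The line effect over the 6 lines passed an adjusted p of 0.001 in limma for 0 of 41 genes, against 12.3% of all tested probe sets. At an unadjusted p under 0.05 there were 6 of 41, against 50.3% of probe sets. An analysis of variance on Signal in the form of the methods, refitted here with the filter and adjustment used for limma, called 1, *RpL7-like*. The line by sex interaction was called for 0 of 41 genes in limma (0.245% of probe sets), with 2 at an unadjusted p under 0.05 (22.4% of probe sets) and 0 in the analysis of variance.

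None of the selection contrasts had a call in limma by the rule of the methods, which asks for a line effect or interaction at an adjusted p under 0.001 and a contrast p under 0.05. Resistant minus sensitive had 0 of 41 (8.77% of all probe sets), resistant minus control 0 of 41 (7.86%) and sensitive minus control 0 of 41 (8.58%). At an unadjusted p under 0.05 there were 3, 3 and 1 of 41, where the shares of all probe sets were 29.1%, 29% and 25.2%. The refitted analysis of variance called 1, 1 and 0. With line as a random block, or with line means as the units, 0 of 41 genes had an unadjusted p under 0.05 in any of the 3 contrasts. The contrasts share lines, so their counts are not independent.

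The bright genes were within a narrow band across selection groups. For resistant minus sensitive lines, sexes averaged, their differences reached at most 0.13 on the log2 scale in size, with a median of -0.02 and a median standard error of 0.07. For resistant minus control lines the largest was 0.12 with a median of -0.04, and for sensitive minus control lines 0.11 with a median of -0.02. The sign of these medians depended on the scaling, since resistant minus sensitive had a median of 0.03 after quantile normalization and -0.07 after centring on array medians. It also turned when single arrays were left out, to 0.02 without S1 females replicate 2 and to 0.01 without S2 males replicate 2 or R2 females replicate 1, over a range of -0.07 to 0.02.

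The 5 genes with the smallest p of the line effect were all dimmer genes. They were *RpLP0-like* (adjusted p = 0.00116 from limma), *RpL7-like* (0.00142), *RpL22-like* (0.0189), *RpS5b* (0.0389) and *RpL34a* (0.0612). *RpLP0-like* and *RpL7-like* fell just short of the threshold of 0.001, and their calls depended on the setting. The adjusted p from limma was 0.000377 for *RpLP0-like* and 0.000789 for *RpL7-like* with quantile normalization, but 0.0263 for *RpLP0-like* and 0.277 for *RpL7-like* with each array centred on the 220 other bright probe sets. In the analysis of variance it was 0.0581 for *RpLP0-like* and 0.000254 for *RpL7-like*.

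For *RpLP0-like*, male pools had a Signal of 204.5 and 185.8 in R1, 137.3 and 153.5 in R2, 194.4 and 173.9 in S1, 275.7 and 291.4 in S2, 261.9 and 234.9 in C1, and 245.6 and 197.5 in C2. R2 males were thus the lowest and S2 males the highest, with no overlap of the pools of these lines with any other. Female pools had 1143 to 1543, with R1 at 1226 and 1143 and S2 at 1380 and 1543. Resistant minus sensitive was -0.29 ± 0.06 (standard error), made up of -0.02 ± 0.09 for R1 minus S1 and -0.55 ± 0.09 for R2 minus S2. The pair differences differed from each other by 0.53 (adjusted p = 0.00768 from limma).

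For *RpL7-like*, male pools had a Signal of 1139 and 1174 in R1, 1278 and 1072 in R2, 1706 and 1466 in S1, 1074 and 1236 in S2, 1203 and 1318 in C1, and 1233 and 1084 in C2. S1 males stood above all others. Female pools had 2755 and 2788 in R1, 3401 and 3158 in R2, 3736 and 3714 in S1, 3058 and 2985 in S2, 3721 and 3848 in C1, and 3490 and 3243 in C2, with R1 lowest. Resistant minus sensitive was -0.19 ± 0.05, made up of -0.44 ± 0.07 for R1 minus S1 and 0.07 ± 0.07 for R2 minus S2. The pair differences differed from each other by -0.51 (adjusted p = 0.00235 from limma).

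These were the 2 of 41 genes whose line pairs differed at an adjusted p under 0.05, where 18.4% of all probe sets did. In *RpLP0-like* the difference between resistant and sensitive lines lay in the second pair of lines and in *RpL7-like* in the first, and the tested difference between pairs was past the threshold for each. Lines of the same selection differed as well, with S1 minus S2 at -0.40 ± 0.09 for *RpLP0-like* and 0.38 ± 0.07 for *RpL7-like*.

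**Figure D4:**
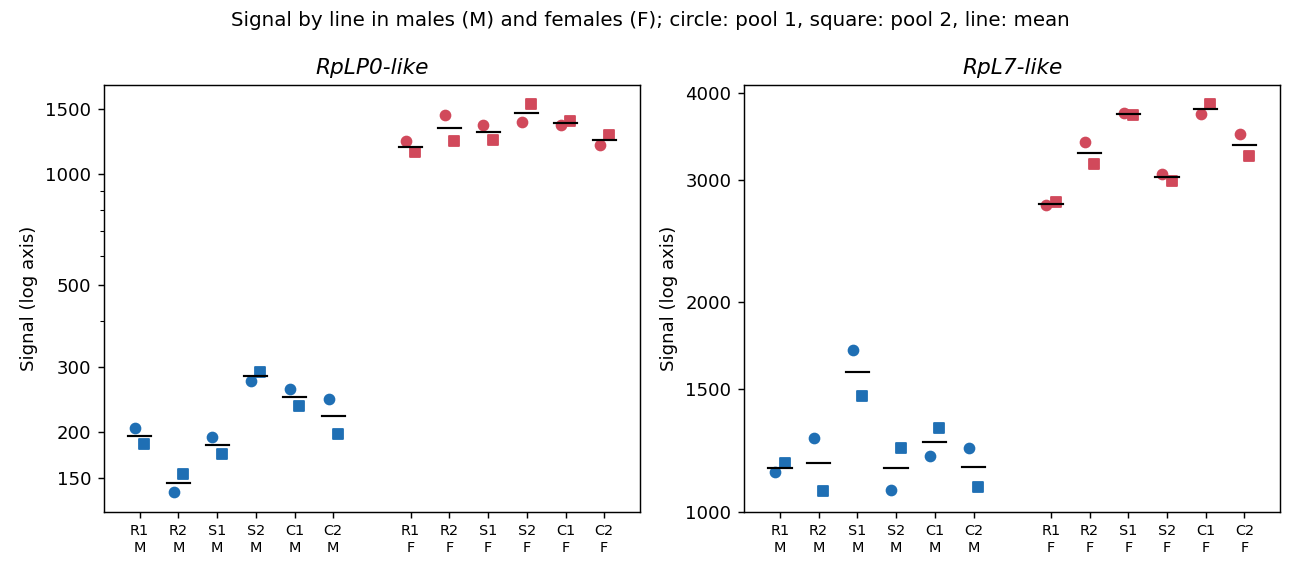
Signal of *RpLP0-like* (left) and *RpL7-like* (right) in the 2 pools of each line, on a log axis, with males left of females and a line for the mean. R2 males are lowest and S2 males highest for *RpLP0-like*, and S1 males stand above the other males for *RpL7-like*.

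The other 3 genes had wider spreads or smaller differences. *RpL22-like* had 11.51 and 4.67 in S2 females and 14.46 and 42.71 in S1 females, against 25.56 to 42.83 in control females, all below the filter level of 50, and sensitive minus control was -0.64 ± 0.23. *RpS5b* was 603.6 and 606.8 in S2 males, below the 642 to 969 of the other male pools, and S1 minus S2 was 0.40 ± 0.10. *RpL34a* had 3258 to 3740 in R males and 4709 to 6276 in R females, against 3737 to 4302 in S males and 5596 to 7197 in S females, with resistant minus sensitive at -0.19 ± 0.06 (adjusted p of the line effect = 0.0612), not called.

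The bright genes moved together from array to array. Over the 24 arrays, the correlation of log2 Signal between pairs of bright genes was 0.583 to 0.982 with a median of 0.926 (406 pairs), and for deviations from the mean of each line and sex the median was 0.936. The genes share arrays and scaling, and the per-array median of the 220 other bright probe sets had a correlation of 0.797 with that of the bright genes. Ribosomal protein genes outside the rule may be among the 220.

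The median Signal of the 29 bright genes was 14280 to 19360 in male arrays (median 17220) and 16210 to 24300 in female arrays (median 18970). By line, the mean over pools in males was 18780 in R1, 16320 in R2, 17880 in S1, 16140 in S2, 15600 in C1 and 16720 in C2. In females it was 17920 in R1, 17720 in R2, 21550 in S1, 17180 in S2, 20700 in C1 and 21590 in C2. All 41 genes made up 3.16% to 3.97% of summed Signal in males and 3.8% to 4.82% in females.

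For resistant minus control, the bright genes had opposite signs in the sexes in the deposited scaling, without a call. In males 28 of 29 differences were positive, with a median of 0.12 and 0 at an unadjusted p under 0.05 in limma (17% of all probe sets). In females 29 of 29 were negative, with a median of -0.22 and 16 at an unadjusted p under 0.05 (30.9% of all probe sets), the smallest adjusted p being 0.0647 from limma. For the contrast of this difference between sexes, 25 of 41 genes had an unadjusted p under 0.05 (16.4% of all probe sets), and 0 of 41 an adjusted p under 0.05 (smallest 0.114). With each array centred on the median of all probe sets, the signs were opposite too (0.13 in males and -0.29 in females). After quantile normalization the medians were 0.01 in males and 0.00 in females. With each array centred on the 220 other bright probe sets they were 0.03 in males and 0.03 in females. Both of the latter scalings can also take out a shift that bright probe sets share, and the cause of the signs was not tested. In the deposited scaling, the median in males was 0.06 without C1 males replicate 1 and 0.18 without C1 males replicate 2. Sensitive minus control, which shares the control lines, had signs of the same kind in the deposited scaling, with 27 of 29 positive in males (median 0.10) and 29 of 29 negative in females (median -0.14).

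S1 minus S2 was positive for 29 of 29 bright genes, with a median of 0.22 and 16 at an unadjusted p under 0.05 (36.6% of all probe sets). After quantile normalization the median was -0.03, and with each array centred on the 220 other bright probe sets -0.04, so the sign depended on the scaling. As above, these scalings can also take out a shift that bright probe sets share. Pool 2 of S1 females had a median Signal of 24300 and pool 1 had 18800, while pool 1 of S2 males had 14630 and pool 2 had 17660. Without pool 2 of S1 females the median was 0.13, and without that pool and pool 1 of S2 males it was 0.06. The summed Signal of the 5 flight muscle genes was 72770 in pool 2 of S1 females and 14580 in pool 1, and its part in the difference was not tested.

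**Figure D5:**
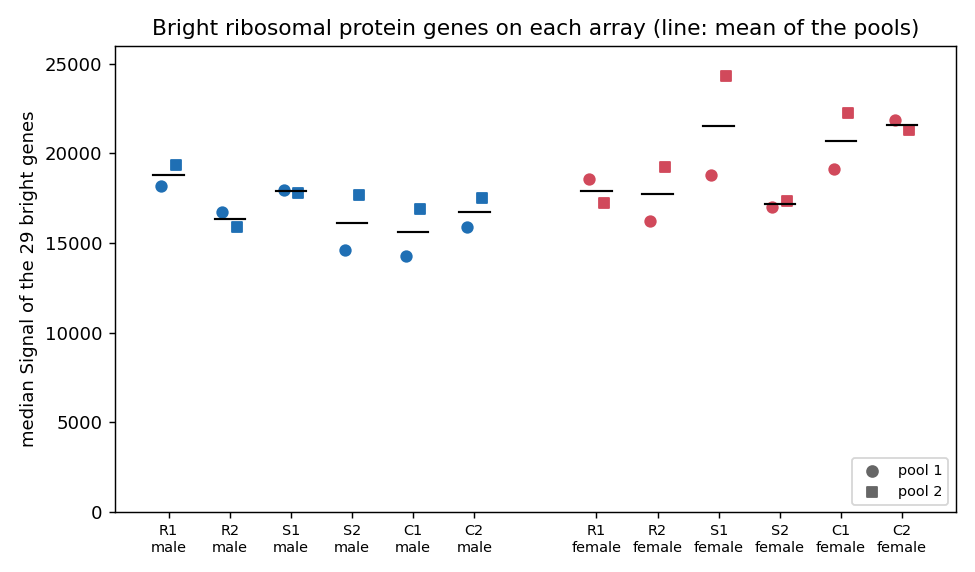
Median Signal of the 29 bright ribosomal protein genes on each array, by line, males left of females, with circles and squares for the pools and a line for their mean. Male arrays lie between 14280 and 19360 and female arrays between 16210 and 24300, with pool 2 of S1 females highest.

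Other genes of translation were followed by lists of symbols. Of 35 symbols of initiation factors, 26 were tested, of which 6 were higher in males (36% of all tested probe sets) and 18 higher in females (42.3% of all), with a median difference of -0.71. Among those higher in males were paralogues of the cap-binding protein eIF4E, of which the 4 with the largest differences are described. *eIF4E6* was also called, with a difference of 3.44 (1.25 on the scale of log2(Signal + 50)). *eIF4E7* had a mean Signal of 754 ± 65 in males and 2.08 ± 1.47 in females (SD, n = 12 arrays each) and differed by 8.71, *eIF4E5* by 7.95, *eIF4E4* by 7.39 and *eIF4E3* by 6.71, whereas *eIF4E1*, the general form, differed by -0.98 and was higher in females (4121 ± 413 in males and 8129 ± 495 in females). The mean female Signals of the 4 paralogues, from 2.08 for *eIF4E7* to 31.98 for *eIF4E3*, and that of *eIF4E6*, 9.86, were below the filter level of 50. For any of these genes with no female array at that level, the filter fixed the direction in advance. On the scale of log2(Signal + 50) the differences were 3.94 for *eIF4E7*, 5.56 for *eIF4E5*, 5.02 for *eIF4E4* and 5.27 for *eIF4E3*, so their order depended on how low values were treated.

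Of 12 symbols of elongation and release factors 6 were tested, with 1 higher in males (36% of all tested probe sets), *eEF1alpha2* (0.75), and 5 higher in females (42.3% of all), among them *eEF1delta* (-1.19), *eEF1gamma* (-0.54) and *Rack1*, a protein of the small subunit surface (-0.50).

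Genes for the making of ribosomes were mostly higher in females. Of 29 symbols of ribosome biogenesis and RNA polymerase I, 26 were tested. Of these, 1 was higher in males (36% of all tested probe sets) and 25 higher in females (42.3% of all). The median difference of the 26 was -2.77, against -0.19 for the 29 bright ribosomal protein genes. That comparison is given without a test and is between unlike levels of Signal. *Nop60B*, a pseudouridine synthase of the nucleolus, had a mean Signal of 300 ± 45 in males and 4914 ± 996 in females (SD, n = 12 arrays each) and differed by -4.02. *Nopp140*, a nucleolar chaperone, differed by -3.54, *l(3)72Dn* by -3.25 and *Nop56*, a core protein of small nucleolar particles, by -3.15.

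Of the 26 biogenesis genes 2 were called for line, a smaller share than the 12.3% of all tested probe sets. They were *Tif-IA*, an initiation factor of RNA polymerase I, and *CG4364*. For *Tif-IA* resistant minus sensitive was 0.36 ± 0.04 (standard error; adjusted p of the line effect = 2.29e-05 from limma), with a mean Signal of 2109 in resistant and 1633 in sensitive lines, and for *CG4364* it was 0.17 ± 0.04 (adjusted p of the line effect = 3.93e-05). Neither was split by line pair here, and the errors measure the spread between RNA pools. With line means as the units, 0 of all tested probe sets passed an adjusted p of 0.05 from limma for resistant minus sensitive. Of 13 symbols of growth regulators 8 were tested, of which 5 were called for sex, where 78.3% of all probe sets were, all of them higher in females, namely *raptor* (-2.15), *Tsc1* (-1.16), *Mnt* (-1.09), *foxo* (-0.66) and *gig* (-0.65). In the lists other than ribosome biogenesis, the smallest adjusted p of the line effect was 0.00113 from limma, for *eEF1delta*.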

How the data were processed

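RNA of 24 pools was hybridized to Affymetrix Drosophila Genome 2.0 arrays. The authors summarized probes with MAS5 and deposited an intensity (Signal) for each probe set, linear and scaled per array. The build is not given in the sources used here. Of 18952 probe sets, 183 controls were left out, 13647 were paired with 1 symbol, and 11857 had a Signal of at least 50 on at least 12 arrays. Signal was raised to a floor of 1 (0 of 984 values of these genes) and log2 transformed. R 4.3.3 and limma 3.58.1 (lmFit, eBayes with trend, prior degrees of freedom 4.03) fitted 1 mean for each line and sex, with Benjamini-Hochberg adjustment over all tested probe sets, checked on simulated data. Calls needed an adjusted p under 0.001 for sex, line or interaction, and then p under 0.05 for contrasts. Paralogue ratios were tested by exact sign-flip over 6 lines. The alternatives were other scalings, filters, offsets, tests and left-out arrays.

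The genes named are those of the paralogue pairs, the 6 largest differences between the sexes in each direction, the 3 smallest, the 5 smallest p of the line effect, and up to 4 called genes of each other list; other names were chosen after their values were seen. Members, lists and this rule were chosen with earlier results of these data known. The number of arrays limits the precision.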

Additional observations from a re-analysis of the deposited data

Results flagged for a closer look

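In 2 pools, several bright genes stood apart from the other arrays of their selection group and sex, by Dixon's criterion for 4 values. On pool 1 of S2 males, 7 genes were low. *RpL40* had a Signal of 11990, with the other S male arrays at 14320 to 14510, *RpLP0* had 14510 (others 17480 to 17970), *RpLP2* 17290 (20630 to 21090) and *RpS12* 15060 (18370 to 19020). On the same array *RpS15* had 14630 (16910 to 17240), *RpS27A* 16520 (20240 to 20510) and *RpS29* 14560 (17610 to 18120). The median over the 29 bright genes, 14630, was itself apart there, with 17970 as the highest of the S male arrays.

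On pool 2 of S1 females, 4 genes were high. *RpL3* had 22750 with the other S female arrays at 14850 to 16150, *RpS18* 25480 (19490 to 20500), *RpS29* 23800 (16070 to 17070) and *RpS30* 21000 (14610 to 14740). Another bright gene, *RpL37A*, was low at 17300 on pool 1 of C1 females (others 19220 to 19580). Among the dimmer genes, *RpL10Aa* had 22.26 on pool 2 of S2 females (others 5.724 to 7.59), *RpL22-like* 42.83 on pool 2 of C2 females (others 25.56 to 27.67) and *RpS28a* 382.7 on pool 2 of C1 males (others 184 to 207.6). These are 15 single-gene values in 246 tests, and chance alone marks about 1 in 20.

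The differences of the line pairs, R1 minus S1 less R2 minus S2, were -0.509 for *RpL7-like* and 0.525 for *RpLP0-like* on the log2 scale, each past an adjusted p of 0.05 from limma.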

How the results depend on the processing

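Over 675 of the 700 values that the alternatives gave for the sex differences of 20 named genes, direction and side of the threshold were kept, 5 turned their sign without a call on either side, 2 lost their call and 18 gained one. The signs turned for *RpL41* (0.145), *RpL3* (0.0802), *RpLP2* (0.0719) and *RpS28b* (0.0672) with centring on array medians, and for *RpL41* (0.0141) without pool 2 of S1 females and pool 1 of S2 males, a setting chosen after seeing the data. The 7 genes higher in males and the 5 paralogue pairs were called under every alternative run for them. For *RpL10Aa*, *RpS28-like*, *RpS10a* and *RpL22-like*, alone or in a pair, the filter had fixed the direction of the gene itself. That it held under the alternatives was therefore not a free outcome. The counts of interaction and of sensitive minus control stayed at 0 in limma and in the analysis of variance. The 13 genes higher in females became 20 with quantile normalization and 5 with centring on array medians, where the median difference was 0.00353 for the 41 genes and -0.00653 for the bright genes. With the mean of all probe sets of a gene, 8 genes were higher in males, 1 of them bright, and 14 higher in females. For the line effect, resistant minus sensitive and resistant minus control, 2 genes each were called with quantile normalization and with centring, and 1 each with the analysis of variance. Of settings chosen after seeing the data, quantile normalization within each sex gave 33 genes higher in females and 1 call each for the line effect, resistant minus sensitive and resistant minus control, and centring on other bright probe sets gave 24 genes higher in females. The cause was not tested. Leaving out 1 array at a time gave 7 to 7 genes higher in males, 9 to 19 higher in females (19 without S1 females replicate 1), 0 to 1 for the line effect, resistant minus sensitive and resistant minus control, 0 to 0 for the interaction and sensitive minus control, medians of -0.21 to -0.15 (41 genes) and -0.217 to -0.159 (bright genes), and 5 to 5 pairs. The single line call was *RpLP0-like*, without C2 males replicate 1, C2 males replicate 2 or S1 females replicate 1. Over all tested probe sets, replicate numbers did not pair the pools (correlations of -0.15 to 0.176, 4 of 66 over 0.1). For the bright genes, the median of pool 1 minus pool 2 was negative in most groups, from -0.356 in S1 females to 0.135 in R1 females. With the replicate number as a block 17 genes were higher in females and 0 were called for line.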
